A study of Mus musculus with 4 samples.

Results

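The nucleic acid sensors of the RIG-I, STING and Toll-like receptor families, with the kinase, the transcription factor and the receptor chain that act with them, were described as a set of 10 listed genes among the 31053 genes counted: Ddx58, Ifih1, Dhx58, Mavs, Tmem173, Tlr3, Tlr7, Tbk1, Irf3 and Ifnar1. The 10 symbols had been chosen with earlier results of these data known. They were taken as listed, whatever their levels, and all 10 were found in the gene table. Single cells came from aortic arches with their main branches and the perivascular tissue around them, digested, sorted for live (DAPI-negative) cells and tagged at the 3' end of each transcript with 10x Chromium chemistry. The study asked how loss of the transcription factor Nrf2 in cells with Cdh5-Cre activity bears on the phagocytes of the aortic wall in atherosclerosis.

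All mice were male, 3 months old at the start, and carried floxed alleles of Nfe2l2, the gene of Nrf2. Normocholesterolemic mice had saline and the standard diet. Atherosclerotic mice had a high-fat diet for 21 weeks, after a treatment at its start. The 4 libraries were normocholesterolemic Nrf2flox/flox (titled Lox_CTR), normocholesterolemic Nrf2Cdh5tKO (KO_CTR), atherosclerotic Nrf2flox/flox (Lox_HFD) and atherosclerotic Nrf2Cdh5tKO (KO_HFD), and every list of 4 values below follows this order. Each library was 1 pool, of 4 normocholesterolemic or 3 atherosclerotic mice, so no spread between mice is known and no test between conditions was made. Cdh5-Cre is active in endothelium and also in a proportion of hematopoietic cells, so phagocytes of the Nrf2Cdh5tKO mice can be a mixture.

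Of 15599 barcodes, 14148 cells passed the limits on genes and mitochondrial share (7890, 2972, 1020 and 2266), with a median of 9200.5 to 14152.5 UMIs (unique molecular identifiers, each counting 1 captured mRNA molecule). Cells were assigned to types by how many markers of a fixed list they held, and 11769 cells passed a single gate, among them 7100 fibroblasts, 1786 smooth muscle cells, 1355 mononuclear phagocytes, 423 T cells, 168 endothelial cells and 99 dendritic cells. Each gated type had every marker of its own list detected. Another 8.88%, 9.56%, 12.5% and 21.1% of the cells passed no gate, the largest share in KO_HFD. Libraries shared 1 to 7 barcodes per pair. The targeted gene was not lower under the Nrf2Cdh5tKO labels: Nfe2l2 stood at 188, 377, 170 and 355 CPM (UMIs per 1000000 UMIs of that cell type and library) in endothelial cells, where Cdh5 was at 768 to 1164 CPM, and at 450, 488, 468 and 486 CPM in phagocytes. The excision of exon 5 cannot be read from these counts, so KO_CTR and KO_HFD are named by their labels only. The paper checked it by qPCR in cultured bone marrow-derived macrophages and in Kupffer cells of healthy mice. There it reports less exon 5, relative to an exon that Cre leaves in place, in Nrf2Cdh5tKO mice. It also reports lower Nqo1 and Gclm, which are Nrf2 targets.

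RIG-I (Ddx58) and MDA5 (Ifih1) are cytosolic helicases that bind viral or misplaced double-stranded RNA and signal through the mitochondrial adaptor MAVS. LGP2 (Dhx58) tunes them. STING (Tmem173) sits in the endoplasmic reticulum and responds to the cyclic dinucleotide that cGAS makes on cytosolic DNA, while Toll-like receptors 3 and 7 read double-stranded and single-stranded RNA in endosomes. MAVS, STING and the Tlr3 adaptor activate the kinase TBK1, which phosphorylates the transcription factor IRF3 and so switches on interferon-beta. Secreted type I interferon acts on the receptor chains Ifnar1 and Ifnar2 and raises interferon-stimulated genes, among them some of the sensors themselves.

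**Figure D1:**
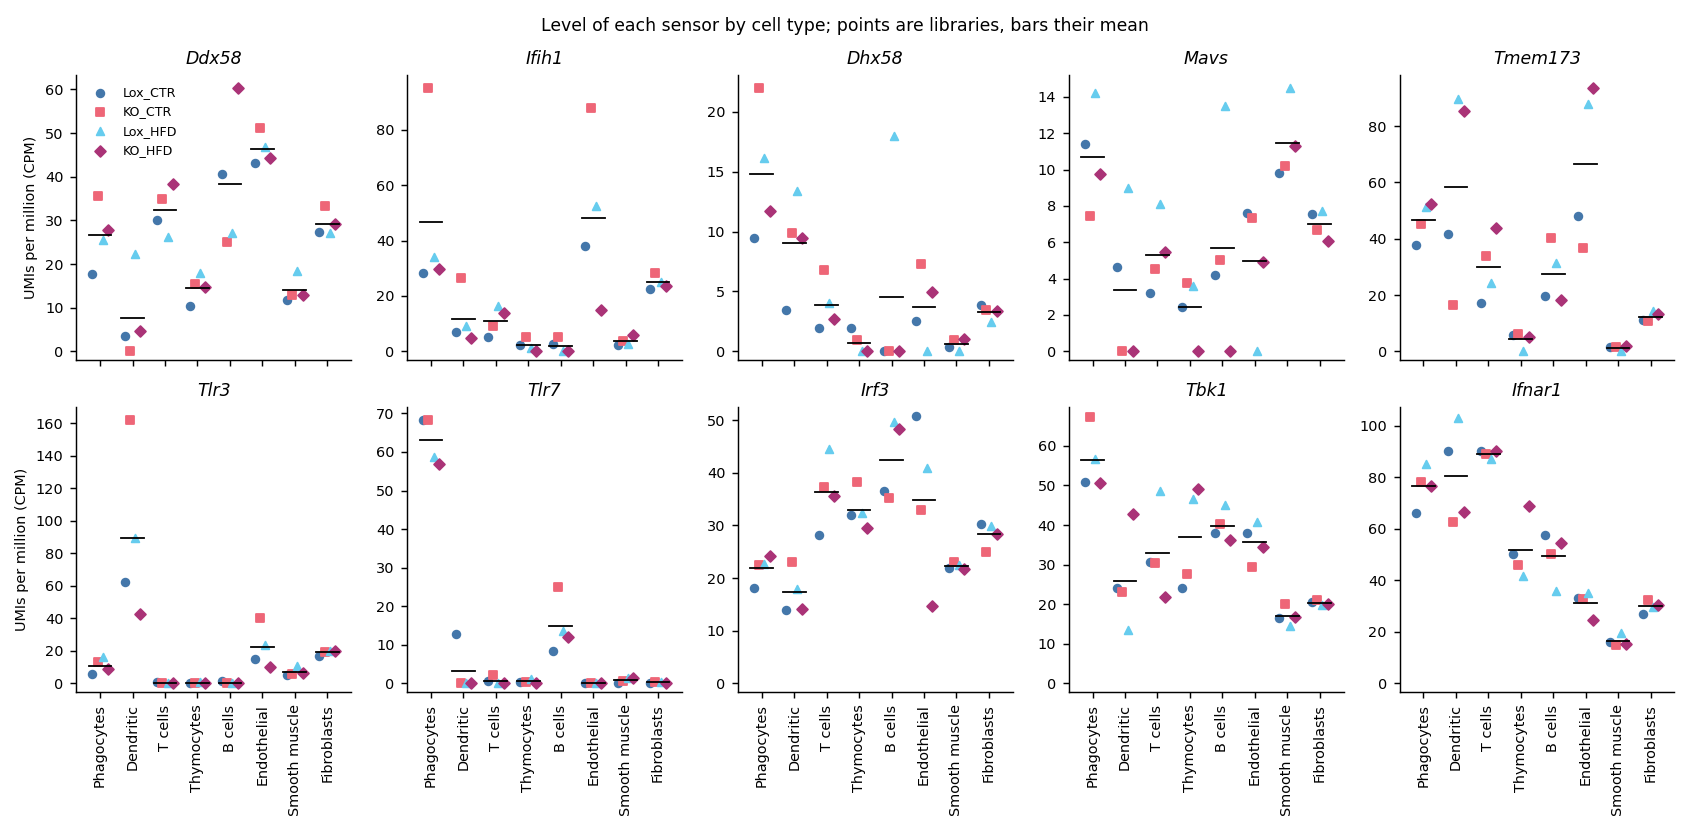
Level of each of the 10 genes in 8 cell types (y axis, CPM), 1 point per library with the bar at their mean. Tlr7 stood between 56.9 and 68.3 CPM in mononuclear phagocytes and at 0 in endothelial cells, whereas Irf3 and Ddx58 had UMIs in nearly every type and library.

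The RNA helicase Ddx58 (ENSMUSG00000040296, reverse strand of chromosome 4 from 40203773 to 40239828, GRCm38) was detected in all vascular and most immune cell types. Its level was 43.1, 51.2, 46.8 and 44.3 CPM in endothelial cells, 27.3, 33.4, 27 and 29.1 in fibroblasts, 17.7, 35.5, 25.5 and 27.7 in mononuclear phagocytes and 11.8, 12.8, 18.4 and 12.9 in smooth muscle cells. Here and below, types were ordered by the mean of the 4 libraries, among the 8 types with at least 10 cells in every library. Neutrophils, with 6 cells in KO_HFD, and natural killer (NK) cells, with 2 in Lox_HFD, were left out. Their means for Ddx58 were 34 and 39 CPM. Endothelial cells led, B cells, T cells, fibroblasts and phagocytes followed, and dendritic cells were last at 7.65 CPM. In all 7 pairs of neighbouring types in that order the library ranges overlapped. Fibroblasts, the most numerous cells, held 73.5% of the Ddx58 UMIs of gated cells.

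Ifih1 (ENSMUSG00000026896, reverse strand of chromosome 2 from 62595798 to 62646255) was at 38.1, 87.8, 52.6 and 14.8 CPM in endothelial cells and at 28.3, 95.2, 34.1 and 29.6 in phagocytes. Fibroblasts had 22.6, 28.2, 25 and 23.7 CPM and smooth muscle cells 2.33, 3.58, 2.63 and 5.96. KO_CTR was the highest library in the first 3 of these types, by a wide margin in phagocytes. The endothelial values rest on 15, 24, 9 and 3 UMIs, and 5 cells held 16 of the 24 of KO_CTR. Phagocytes stood above fibroblasts in every library, the only neighbours in the order of types whose ranges did not overlap. B cells and thymocytes were lowest, with means of 1.96 and 2.2 CPM.

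The starts of these helicase genes are shown because both stood higher in phagocytes rich in interferon-stimulated transcripts in all 4 libraries, as described further on, and that of Tlr3 because it was higher there in 3 of 4. The RefSeq promoter table of GRCm38.p6 covers 250 bases before and 50 bases after each start as RefSeq places it. For Tlr3 that start lies inside the GENCODE span of the gene (45395665 to 45411080, reverse strand). The Tlr3 stretch printed here is before the RefSeq start but within that span. It was searched on both strands for GAAANNGAAA, the repeat read by interferon-regulatory and STAT factors. A shorter form, AANNGAAA, was added after the longer one had been tried. Capitals mark the match and each line reads 5' to 3' on the coding strand, which is the reverse strand for all 3 genes.
Ddx58, chr4:40239804-40239833, the longer motif read on the other strand, from base 3 after the start: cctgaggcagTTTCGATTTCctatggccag
Ddx58, chr4:40239866-40239895, the shorter motif, from 59 bases before the start: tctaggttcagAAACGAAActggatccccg
Ifih1, chr2:62646206-62646235, the longer motif, from base 33 after the start: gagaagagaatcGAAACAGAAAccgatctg
Tlr3, chr8:45410421-45410450, the shorter motif read on the other strand, from 59 bases before the start: aagtgaatggcTTTCACTTtgtttagacac
Every match of the longer motif also holds the shorter one. The longer motif was in 2 of the 7 member promoters in the table and in 3.44% of all 32851 promoters, the shorter in 3 of 7 and in 23.9%. Mavs, Irf3, Tbk1 and Ifnar1 held neither within this window, and Dhx58, Tmem173 and Tlr7 have no entry. A match is a description of the letters and no binding was measured here.

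Dhx58 (ENSMUSG00000017830, reverse strand of chromosome 11 from 100694884 to 100704271), the regulator of both helicases, had its highest CPM in phagocytes, at a low level. Fibroblasts, being more numerous, held 59.5% of the Dhx58 UMIs of gated cells and phagocytes 31%. Phagocytes had 9.42, 22, 16.1 and 11.7 CPM, fibroblasts 3.85, 3.48, 2.47 and 3.4, and smooth muscle cells 0.388, 0.943, 0 and 0.993. The lowest phagocyte library stood above the highest fibroblast library, and phagocytes led the order of types before dendritic cells, whose range overlapped theirs. Exons of the antisense gene Dhx58os overlap it on the opposite strand. Cell Ranger by default counts reads in the sense of the transcript and lists the 2 genes apart, but the setting used is not given in the sources used here.

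Mavs (ENSMUSG00000037523, forward strand of chromosome 2 from 131234063 to 131248025), the adaptor below the helicases, was evenly low. Smooth muscle cells had 9.8, 10.2, 14.5 and 11.3 CPM, phagocytes 11.4, 7.46, 14.2 and 9.74, and fibroblasts 7.55, 6.65, 7.72 and 6.07. Ranges overlapped in all 7 pairs of neighbouring types. No UMI of Mavs was found in 127 neutrophils, which allows a share of cells with a UMI of up to 2.36%, at a median depth of 3474 UMIs.

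The STING gene Tmem173 (ENSMUSG00000024349, reverse strand of chromosome 18 from 35733679 to 35740554) was highest in endothelial cells, dendritic cells and phagocytes. Its level was 48.2, 36.6, 87.7 and 93.6 CPM in endothelial cells, 41.6, 16.5, 89.7 and 85.4 in dendritic cells and 37.6, 45.2, 51.1 and 52.2 in phagocytes. Both atherosclerotic libraries were above both normocholesterolemic ones in each of these 3 types and in fibroblasts. How many of all genes part in this way was not counted. The counting intervals of the log2 ratios held 0 in phagocytes (Lox_HFD against Lox_CTR 0.44, -0.00 to 0.87, and KO_HFD against KO_CTR 0.21, -0.16 to 0.58). The median ratio of all genes in phagocytes was 0.15 and -0.10 in these 2 comparisons. In fibroblasts they were 0.33 (-0.01 to 0.65) and 0.30 (0.01 to 0.59), so the second interval lay above 0. The median ratio of all genes in fibroblasts was 0.06 and -0.04. In endothelial cells the interval held 0 for Lox_HFD against Lox_CTR (0.86, -0.22 to 1.92). KO_HFD against KO_CTR had 93.6 against 36.6 CPM there, from 19 against 10 UMIs. Fibroblasts had 11.3, 10.7, 14.2 and 13.2 CPM and smooth muscle cells 1.61, 1.7, 0 and 1.99, the lowest mean of the 8 types. The endothelial values rest on 10 to 19 UMIs per library, and 5 cells held 14 of the 15 UMIs of Lox_HFD and 15 of the 19 of KO_HFD. The dendritic values rest on 56, 14, 14 and 15 cells.

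Tlr3 (ENSMUSG00000031639, reverse strand of chromosome 8 from 45395665 to 45411080), the endosomal reader of double-stranded RNA, was highest, among the 8 types ordered, in dendritic cells, endothelial cells and fibroblasts. Dendritic cells had 62.3, 162, 89.7 and 42.7 CPM, above every library of every other of the 8 types. Endothelial cells followed with 15.2, 40.3, 23.4 and 9.85 CPM and fibroblasts, in an overlapping range, with 16.9, 19.4, 20.1 and 19.9, against 5.63, 13.4, 16.1 and 8.96 in phagocytes. Smooth muscle cells, the other stromal type, had only 5.04, 6.04, 10.5 and 6.62 CPM. A single Tlr3 UMI was found in 423 T cells, 1 in 477 thymocytes, 1 in 191 B cells and none in 127 neutrophils. Exons of the antisense gene Gm45542 overlap Tlr3 on the opposite strand, with the same limit.

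Within the dendritic cells, a split made after the values were seen placed all 132 Tlr3 UMIs in the 46 cells that held a UMI of Xcr1 or Clec9a, markers of conventional type 1 dendritic cells. These cells had 114, 194, 256 and 145 CPM of Tlr3 and 28 of them held a UMI. The other 53 dendritic cells had 0 UMIs, which allows up to 5.66% of cells with a UMI. Of Tlr7, the first group had 10 UMIs and the second 1. Cells with such a UMI were 28 of 56, 10 of 14, 4 of 14 and 4 of 15, and the part of this make-up in the Tlr3 differences between libraries was not tested. Tmem173 stood at 33.7, 11.9, 25.6 and 161 CPM in these cells, from 2 to 16 UMIs, and at 51.1, 40.1, 124 and 53.8 in the others, so that both atherosclerotic libraries were above both normocholesterolemic ones in the others only.

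Tlr7 (ENSMUSG00000044583, reverse strand of the X chromosome from 167304929 to 167330558), which reads single-stranded RNA, had a sharp boundary between cell types. Phagocytes had 68.2, 68.3, 58.7 and 56.9 CPM and held 93.1% of the Tlr7 UMIs of gated cells. B cells followed with 8.43, 25.1, 13.5 and 12.1 CPM, below every phagocyte library, and fibroblasts had 0.178, 0.313, 0.309 and 0.243. A Tlr7 UMI was found in 41.4% of phagocytes (median depth 9526 UMIs) and in 0.296% of fibroblasts (13312.5 UMIs), and in 17.7% against 0.0884% after each cell was thinned to 3000 UMIs, with 92 shallower phagocytes and 314 fibroblasts left out. In 168 endothelial cells no UMI was found, which allows up to 1.79% of cells with one.

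Among phagocytes Tlr7 was uneven. Lyve1+ resident macrophages, the population that lies along vessels and carries the hyaluronan receptor Lyve1, had 93.2, 79.1, 118 and 80.3 CPM. Cavity macrophages, marked by Lyz1 and Retnla, had 3.11, 15, 0 and 13.4 CPM, from 86, 10, 9 and 24 cells. Each value was below those of Lyve1+ cells and monocytes of the same library. In the 9 cells of Lox_HFD, 3 UMIs would have been 14.5 CPM. Monocytes had 82.3, 51.5, 26 and 27.5 CPM, from 13 to 37 cells per library. Cavity macrophages were also the deepest of these subsets, with a median of 18994 UMIs per cell.

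Among the 8 types ordered, the kinase Tbk1 (ENSMUSG00000020115, reverse strand of chromosome 10 from 121546455 to 121586787) was led by phagocytes, with 50.9, 67.2, 56.8 and 50.7 CPM. These stood above all libraries of B cells, the next of these types, at 37.9, 40.2, 45.1 and 36.3. NK cells, left out of the order, had a mean of 58.5 CPM from 12 UMIs in 43 cells. Fibroblasts had 20.5, 21, 19.9 and 20.1 CPM, the narrowest range of any type for this gene. Irf3 (ENSMUSG00000003184, forward strand of chromosome 7 from 44997648 to 45002848), its substrate, was lower in myeloid than in lymphoid cells. Phagocytes had 18.2, 22.4, 22.7 and 24.2 CPM, B cells 36.5, 35.2, 49.6 and 48.3, T cells 28.2, 37.3, 44.5 and 35.6 and smooth muscle cells 22, 23, 22.4 and 21.8. Exons of Bcl2l12 overlap Irf3 on the opposite strand, with the limit given for Dhx58.

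The receptor chain Ifnar1 (ENSMUSG00000022967, forward strand of chromosome 16 from 91485238 to 91507441) had its highest mean in T cells, with 90.3, 89.2, 87 and 90.3 CPM. Dendritic cells came next, in an overlapping range of 62.8 to 103 CPM. Phagocytes had 66.2, 78, 85.1 and 76.8 CPM, endothelial cells 33, 32.9, 35.1 and 24.6, fibroblasts 27.1, 32.5, 29.6 and 30.6, and smooth muscle cells 16.2, 14.9, 19.7 and 15.2. Of the 8 types with enough cells in every library, each immune type was above endothelial cells, fibroblasts and smooth muscle cells in all libraries. Its partner Ifnar2 was ordered differently: phagocytes had 126, 137, 138 and 136 CPM, fibroblasts 127, 115, 139 and 152, endothelial cells 96.4, 102, 99.4 and 103, T cells 53.1, 57.6, 56.7 and 46.5 and smooth muscle cells 46.8, 48.1, 57.9 and 53.3. Fibroblasts and endothelial cells thus stood above T cells for Ifnar2 and below them for Ifnar1.

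**Figure D2:**
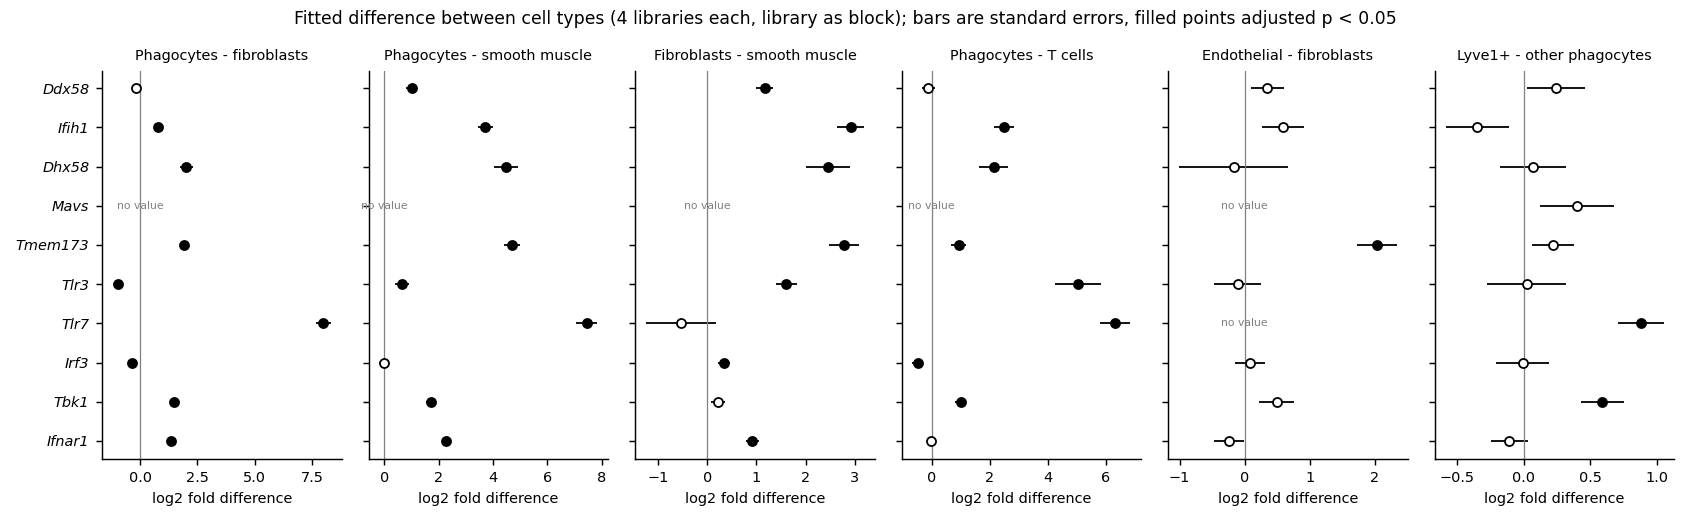
Fitted log2 fold difference (x axis, with standard error) of each gene in 6 contrasts between cell types, filled where the adjusted p was under 0.05. The Tlr7 points stand farthest to the right in the 3 contrasts of phagocytes with other types, and Mavs has a value only between phagocyte subsets.

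Differences between cell types were tested on UMIs summed per type and library, with the library as a block, by edgeR's quasi-likelihood test with Benjamini-Hochberg adjustment over all genes tested. Every library contributed each type, so n = 4. With the library as a block, p-values measure how far differences between types varied over these 4 pools, which differ in genotype label and diet. The variance was estimated from all 32 sums of the 8 types fitted, or from 8 sums for the phagocyte subsets. Between phagocytes and fibroblasts, 8 of 9 members tested differed (6 higher in phagocytes, 2 lower), where 68.9% of 10726 genes did. The members' median log2 difference was 1.35, against -0.11 for all genes tested. Mavs fell under the low-count filter of this fit.

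Tlr7 was higher in phagocytes than in fibroblasts by 7.98 ± 0.33 on the log2 scale (SE, n = 4, edgeR quasi-likelihood, Benjamini-Hochberg adjusted p = 1.8e-19). Dhx58 was higher by 2.02 ± 0.30, Tmem173 by 1.92 ± 0.20, Tbk1 by 1.48 ± 0.14 and Ifnar1 by 1.35 ± 0.12, with edgeR Benjamini-Hochberg adjusted p from 3.8e-12 to 4.2e-07. Tlr3 was lower, by -0.96 ± 0.22 (edgeR adjusted p = 0.00028), as was Irf3, by -0.37 ± 0.14 (edgeR adjusted p = 0.017). Ddx58 had -0.17 ± 0.16 (edgeR adjusted p = 0.37) and Ifnar2 0.04 ± 0.12 (edgeR adjusted p = 0.78). Ifih1 was higher by 0.79 ± 0.20 (edgeR adjusted p = 0.00081), but 1 library carried that call: without KO_CTR it was 0.41 (edgeR adjusted p = 0.091), and DESeq2 gave 0.72 (adjusted p = 0.056). The Irf3 call was lost without Lox_CTR (-0.27, edgeR adjusted p = 0.18), without Lox_HFD (-0.33, edgeR adjusted p = 0.083), with a stricter gate and without the low-count filter.

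Against smooth muscle cells, 8 of 9 members were higher in phagocytes and none lower, where 70.9% of all genes differed. The median over members was 2.27 and over all genes -0.06. Tmem173 differed by 4.70 ± 0.29 and Dhx58 by 4.48 ± 0.45, Ifih1 by 3.71 ± 0.28 and Ddx58 by 1.0 ± 0.19 (edgeR Benjamini-Hochberg adjusted p from 3.8e-16 to 1.9e-05). Irf3 had -0.03 ± 0.15 (edgeR adjusted p = 0.86). Tlr3 was higher by 0.65 ± 0.27 (edgeR adjusted p = 0.028), a call lost with DESeq2 (adjusted p = 0.088) and without Lox_CTR, KO_CTR or Lox_HFD (edgeR adjusted p = 0.052, 0.15 and 0.058).

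Fibroblasts against smooth muscle cells set the stromal types side by side. Here 7 of 9 members were higher in fibroblasts and none lower, where 48.4% of all genes differed, with a median of 1.17 against 0.08. The sensors other than Tlr7 were all higher in fibroblasts: Ifih1 2.92 ± 0.27, Tmem173 2.78 ± 0.30, Dhx58 2.45 ± 0.45, Tlr3 1.61 ± 0.22 and Ddx58 1.17 ± 0.17 (edgeR Benjamini-Hochberg adjusted p from 3e-11 to 2.6e-05). Ifnar1 was higher by 0.92 ± 0.13 and Ifnar2 by 1.40 ± 0.12 (edgeR adjusted p = 3.7e-07 and 1.1e-11). Tbk1 had 0.22 ± 0.15 (edgeR adjusted p = 0.26). Irf3 was higher by 0.34 ± 0.13 (edgeR adjusted p = 0.032), which did not hold without Lox_CTR, Lox_HFD or KO_HFD (edgeR adjusted p = 0.15, 0.087 and 0.078).

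Against T cells, 7 of 9 members differed, 6 higher in phagocytes and 1 lower, where 55.2% of all genes did, and the median was 1.0 against 0.13. Ifih1 was higher in phagocytes by 2.49 ± 0.34, Dhx58 by 2.14 ± 0.49 and Tbk1 by 1.0 ± 0.19 (edgeR Benjamini-Hochberg adjusted p = 1.5e-07, 0.00038 and 3.6e-05). Tlr7 and Tlr3 also passed, but T cells held only 3 and 1 UMIs of them, which over all libraries gave ratios of 72.1-fold (95% counting interval 24.6 to 350) and 28.2-fold (4.97 to 1124). Irf3 was lower by -0.48 ± 0.18 (edgeR adjusted p = 0.025), a call lost without KO_CTR or Lox_HFD (edgeR adjusted p = 0.1 and 0.083), with the stricter gate (0.064) and without the low-count filter (0.11), and Tmem173, higher by 0.93 ± 0.26 (edgeR adjusted p = 0.0026), had 0.70 without Lox_CTR (edgeR adjusted p = 0.085). The receptor chains parted: Ifnar1 had -0.03 ± 0.14 (edgeR adjusted p = 0.89), and Ifnar2 was higher in phagocytes by 1.51 ± 0.15 (edgeR adjusted p = 9.9e-11).

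In endothelial cells against fibroblasts, 1 of 9 members differed, where 35.6% of all genes did. That member was Tmem173, higher in endothelial cells by 2.03 ± 0.31 (edgeR adjusted p = 2e-06). Ifih1 had 0.59 ± 0.32, Ddx58 0.35 ± 0.26, Tbk1 0.49 ± 0.27 and Ifnar1 -0.24 ± 0.23 (edgeR adjusted p from 0.17 to 0.56), with 168 endothelial cells behind them. Ifnar2 was lower in endothelial cells, by -0.71 ± 0.16 (edgeR adjusted p = 0.00047).

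Lyve1+ resident macrophages were set against all other phagocytes, where 2 of 10 members were higher and 29.0% of 8262 genes differed. The medians were 0.15 for members and 0.00 for all genes. Tlr7 was higher by 0.88 ± 0.17 (edgeR adjusted p = 0.0009) and Tbk1 by 0.59 ± 0.16 (edgeR adjusted p = 0.012). With a stricter gate, which asked for 1 more marker and kept 234 of 694 Lyve1+ cells, neither passed (0.21, edgeR adjusted p = 0.48, and 0.49, edgeR adjusted p = 0.062), and without KO_HFD the Tbk1 call was lost as well (0.53, edgeR adjusted p = 0.063). The stricter gate moved Lyve1+ cells with fewer markers into the comparison group, in which phagocytes of no subset went from 446 to 877, so the 2 settings do not compare the same groups. Under the main gate, Tlr7 over all libraries was at 89.2 CPM in Lyve1+ cells and 67.3 in phagocytes of no subset. Monocytes had 55.1 and cavity macrophages 5.92. Tbk1 was at 67.9, 50.1, 49.7 and 29.2 CPM in the same order. The part of the cavity macrophages in these 2 differences was not tested.

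Of 60 other pathway symbols, listed by role but with earlier results of these data known, 59 were in the files and 46 were tested in the fit of cell types. Between phagocytes and fibroblasts 28 were higher in phagocytes, 4 lower and 14 did not pass, with a median of 0.72 against -0.11 for all genes, of which 68.9% differed (3322 higher, 4066 lower). Of the 5 RIG-I regulators tested 1 was higher, 1 lower and 3 did not pass. All 7 endosomal Toll members and partners tested were higher in phagocytes than in smooth muscle cells and than in T cells, where 70.9% and 55.2% of all genes differed in either direction, and 5 of 7 were higher and 1 lower than in fibroblasts. Tlr8, a neighbour of Tlr7 in function, stood at 31.4, 39.9, 33.1 and 44.4 CPM in phagocytes and at 0.0198, 0, 0 and 0.324 in fibroblasts. Tlr13, a reader of bacterial ribosomal RNA, had 18.8, 20.9, 44.5 and 35.5 CPM against 0.138, 0.0782, 0.463 and 0.486. T cells had no UMI of either.

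Of the 9 DNA sensors tested from that list, 6 were higher and 1 lower in phagocytes than in fibroblasts, where 68.9% of all genes differed. Against smooth muscle cells 8 were higher and 1 lower, where 70.9% of all genes differed. Aim2, the inflammasome sensor of DNA, was higher than in fibroblasts by 5.83 ± 0.30 and Irf5, a transcription factor used below Tlr7, by 5.15 ± 0.18 (edgeR Benjamini-Hochberg adjusted p = 4e-18 and 2.3e-21). Fibroblasts were not devoid of DNA sensors. The Ifi200 genes Ifi211, Ifi203 and Ifi204 were higher in fibroblasts than in smooth muscle cells by 5.78 ± 0.33, 5.60 ± 0.34 and 5.20 ± 0.31 (edgeR adjusted p from 1.3e-16 to 9.3e-16). In that contrast 26 of the 46 list genes were higher, 1 lower and 19 did not pass, where 48.4% of all genes differed.

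Rnf125, a ubiquitin ligase that limits RIG-I and MAVS, had a pattern of its own. It stood at 71.1, 71.2, 89 and 68.4 CPM in T cells, 101, 65.9, 87.7 and 73.9 in endothelial cells, 8.85, 10.4, 9.88 and 9.8 in fibroblasts and 0.262, 2.24, 0 and 0.39 in phagocytes. The difference was -6.51 ± 0.33 for phagocytes against T cells and 2.79 ± 0.25 for endothelial cells against fibroblasts (edgeR adjusted p = 1.4e-17 and 2e-11). Against T cells, 25 of the 46 list genes were higher in phagocytes and 8 lower, where 55.2% of all genes differed. In endothelial cells against fibroblasts 5 were higher and 10 lower, and in Lyve1+ against other phagocytes 6 of 44 were higher and 6 lower, shares near the 35.6% and 29.0% of all genes called. There Ifi204 and Ifi203 were higher by 0.90 ± 0.16 and 0.85 ± 0.16, Dnase2a, the lysosomal DNase, by 0.75 ± 0.12, and Samhd1, which hydrolyses dNTPs, was lower by -0.73 ± 0.15 (edgeR adjusted p from 0.0003 to 0.0013).

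A list of 18 interferon-stimulated genes was read beside these, several of which the study chose on the same samples, so that it is not independent evidence, and 2 of which (Irf7 and Zbp1) are also on the pathway list. Of 14 tested, 14 were higher in fibroblasts than in smooth muscle cells and 13 were higher in phagocytes than in smooth muscle cells, where 48.4% and 70.9% of all genes differed in either direction. Phagocytes against fibroblasts gave 6 higher and 3 lower (68.9% of all genes called), phagocytes against T cells 9 higher (55.2%), endothelial cells against fibroblasts 5 higher (35.6%), and Lyve1+ against other phagocytes 1 higher and 3 lower (29.0%).

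**Figure D3:**
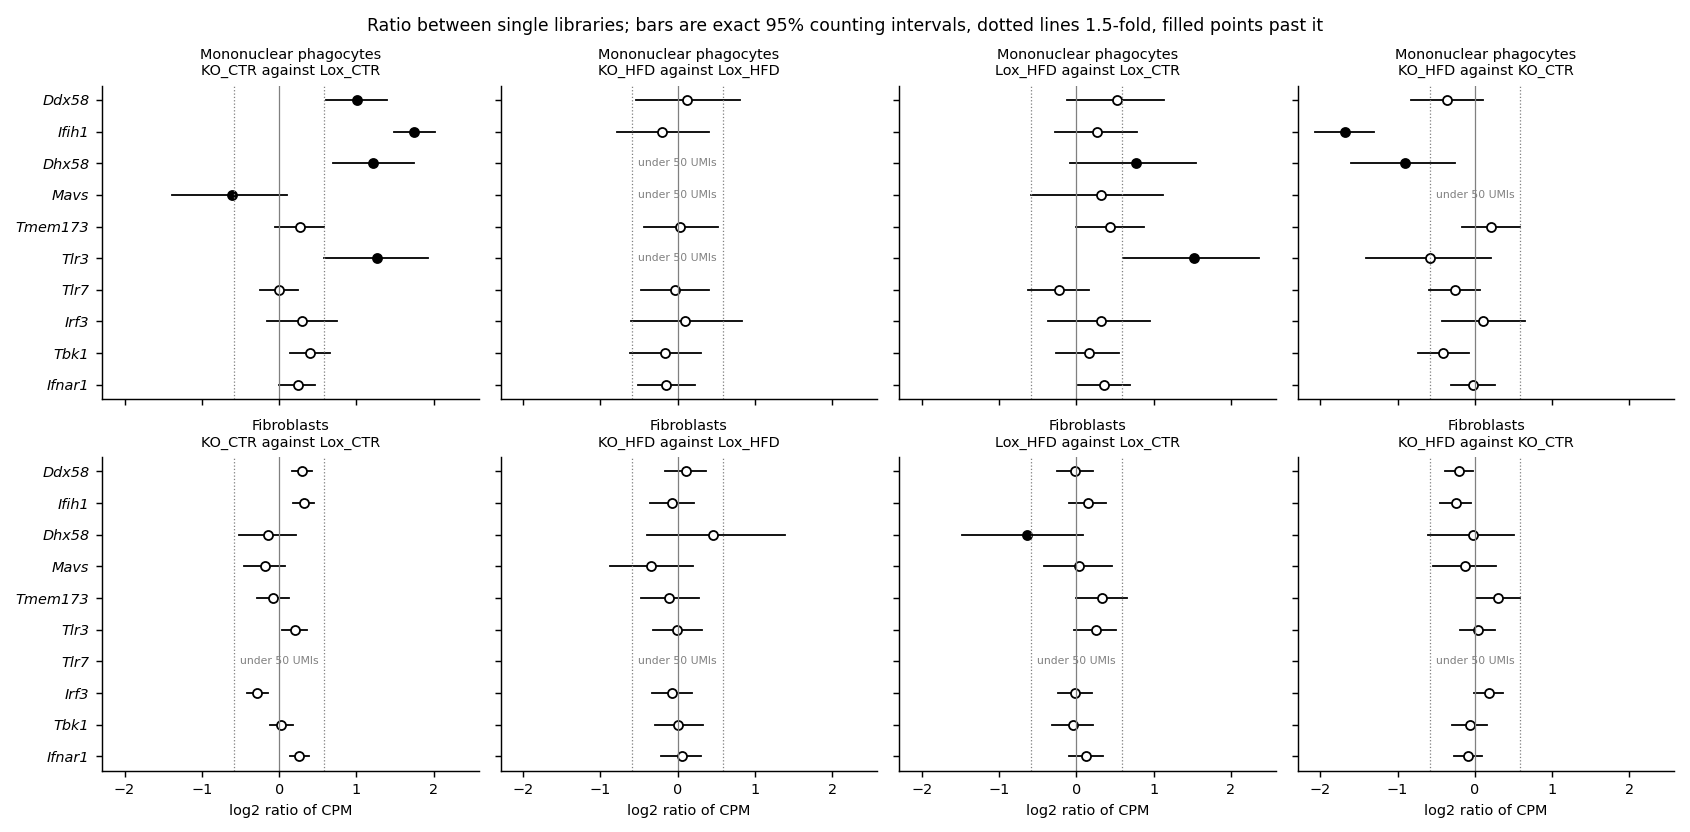
Log2 ratio of CPM between single libraries (x axis) for each gene in phagocytes (top) and fibroblasts (bottom), with exact 95% counting intervals and dotted lines at 1.5-fold. In phagocytes Ddx58, Ifih1, Dhx58 and Tlr3 stand right of the line for KO_CTR against Lox_CTR, while the fibroblast values with at least 50 UMIs lie within the lines apart from Dhx58 in Lox_HFD against Lox_CTR.

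Libraries were compared by the log2 ratio of CPM, with an exact 95% interval for counting error only. A gene was called past 1.5-fold where the 2 libraries together held at least 50 UMIs. In phagocytes of KO_CTR against Lox_CTR, 5 of 10 members were past 1.5-fold, 4 higher and 1 lower, where 30.0% of 9085 genes were. The median log2 ratio of all genes was itself 0.23 and that of the members 0.35. Ddx58 was 2.01-fold higher (log2 1.01, 0.61 to 1.39), Ifih1 3.37-fold (1.75, 1.48 to 2.02), Dhx58 2.34-fold (1.22, 0.70 to 1.74) and Tlr3 2.39-fold (1.26, 0.58 to 1.93). The 4 genes are the RNA sensors of the set other than Tlr7, whose ratio was 0.00 (-0.25 to 0.25). Mavs was 1.53-fold lower with an interval that held 0 (-1.39 to 0.10), and Tmem173, Irf3, Tbk1 and Ifnar1 had ratios of 0.24 to 0.40. In the same phagocytes the 18 interferon-stimulated genes summed to 645, 1208, 754 and 659 CPM, highest in KO_CTR. Cavity macrophages gave 1606069 of the 7642014 phagocyte UMIs of Lox_CTR and 200261 of the 2679367 of KO_CTR. The part of this make-up in the ratios was not tested.

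For the atherosclerotic pair, KO_HFD against Lox_HFD, none of the 7 members with enough UMIs was past 1.5-fold in phagocytes, where 15.7% of all genes were. Ddx58 had 0.12 (-0.54 to 0.81) and Ifih1 -0.20 (-0.79 to 0.41), intervals that hold 0 and reach past 1.5-fold higher for Ddx58 and past 1.5-fold lower for Ifih1. Without the 5 cells with the most UMIs of the gene in each library, an alternative added after the data were seen, Ddx58 was 1.78-fold higher (0.83, -0.06 to 1.82), from 58 against 13 UMIs. Dhx58, Mavs and Tlr3 had under 50 UMIs. Lox_HFD against Lox_CTR had 2 of 10 members past 1.5-fold, Tlr3 2.86-fold higher (0.61 to 2.36 on the log2 scale) and Dhx58 1.71-fold (-0.08 to 1.55), where 29.7% of genes were. Without the 5 highest cells Tlr3 was 1.83-fold higher with an interval that held 0 (-0.45 to 2.02), Dhx58 1.43-fold higher (-0.56 to 1.46) and Tlr7 1.51-fold lower (-1.07 to -0.14), and removing 5 cells takes a larger share of the 111 phagocytes of Lox_HFD than of the 665 of Lox_CTR. KO_HFD against KO_CTR had 2 of 9, Ifih1 3.21-fold lower (log2 -1.68, -2.07 to -1.31) and Dhx58 1.88-fold lower (-0.91, -1.60 to -0.26), where 17.0% were. The comparisons share libraries, so the high KO_CTR values enter both the first and the last.

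Lyve1+ resident macrophages had 4 of 9 members past 1.5-fold for KO_CTR against Lox_CTR, where 27.6% of all genes were. Ifih1 was 2.24-fold higher (0.76 to 1.57), Dhx58 2-fold (0.26 to 1.74) and Ddx58 1.59-fold (0.12 to 1.21), and Mavs was 1.75-fold lower (-1.86 to 0.12). None of 4 was past it for KO_HFD against Lox_HFD (26.2% of all genes). Ddx58 and Ifih1 had under 50 UMIs there and were not among the 4. Ddx58 had 39 against 10 UMIs, or 40.1 against 28.8 CPM (log2 0.48, -0.55 to 1.65). Ifih1 had 38 against 8 UMIs, or 39.1 against 23 CPM, 1.7-fold higher (0.76, -0.36 to 2.08). Without the 5 highest cells Ddx58 and Ifih1 were 4.52-fold and 4.44-fold higher (log2 intervals 0.19 to 5.29 and 0.16 to 5.27), each from 2 UMIs in Lox_HFD. In Lox_HFD against Lox_CTR, 3 of 8 were higher (43.9% of all genes): Irf3 1.89-fold (-0.10 to 1.82), Ifnar1 1.75-fold (0.25 to 1.32) and Tbk1 1.6-fold (0.11 to 1.20), from 47 Lyve1+ cells of Lox_HFD. Without the 5 highest cells these were 1.31-fold, 1.28-fold and 1.19-fold, with intervals that held 0. In KO_HFD against KO_CTR, 1 of 7 was lower (13.8%), Ifih1 by 1.7-fold.

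Fibroblasts had 0 of 9 members past 1.5-fold for KO_CTR against Lox_CTR (13.3% of all genes), 0 of 9 for KO_HFD against Lox_HFD (5.85%) and 0 of 9 for KO_HFD against KO_CTR (11.4%). In Lox_HFD against Lox_CTR 1 of 9 was (18.4%), Dhx58 at 1.56-fold lower from 16 UMIs, with an interval that held 0. At fibroblast depth the intervals for KO_CTR against Lox_CTR were narrow: those of Ddx58 (0.29), Ifih1 (0.32), Ifnar1 (0.26) and Tlr3 (0.20) lay above 0 and that of Irf3 (-0.28) below it, all within 1.5-fold. How many of all genes had an interval that left out 0 was not counted, so these are no result about the members. Smooth muscle cells had 1 of 7 (Ifih1), 0 of 4, 2 of 6 (Ddx58 and Tlr3) and 0 of 6 past 1.5-fold in the order KO_CTR against Lox_CTR, KO_HFD against Lox_HFD, Lox_HFD against Lox_CTR and KO_HFD against KO_CTR, where 13.2%, 15.5%, 29.8% and 11.5% of genes were. All 3 intervals of these smooth muscle calls held 0. The Tlr3 ratio rested on 8 UMIs in Lox_HFD and turned to -0.57 without the 5 cells with the most Tlr3 UMIs in each library.

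**Figure D4:**
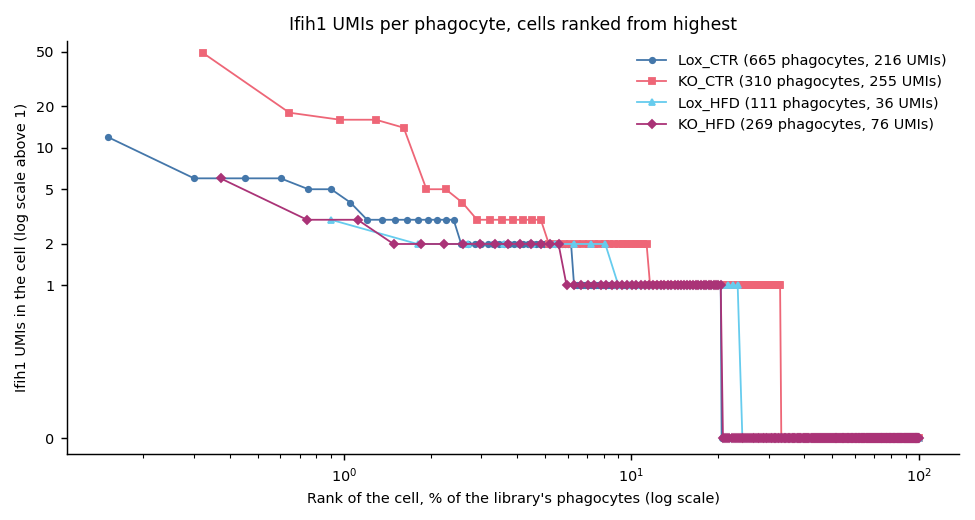
Ifih1 UMIs per phagocyte (y axis, log scale above 1), cells ranked from the highest as a percentage of the library's phagocytes (x axis, log scale), 1 line per library. The KO_CTR line starts at 49 UMIs and holds 5 cells at 14 or more, while the highest cells of the other libraries have 12, 3 and 6.

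The Ifih1 level of KO_CTR phagocytes came in part from a handful of cells. The library's 310 phagocytes held 255 Ifih1 UMIs, of which 49 lay in 1 cell and 113 (44.3%) in 5 cells. In Lox_CTR the 5 highest of 665 phagocytes held 35 of 216 UMIs (16.2%). Without the 5 highest cells of each library, an alternative added after this was seen, the levels were 54.9 and 23.9 CPM and the ratio 2.29-fold (log2 1.20, 0.87 to 1.52). Ddx58, Dhx58 and Tlr3 treated in the same way kept ratios of 1.77-fold, 2.39-fold and 2.31-fold, with intervals above 0. Mavs was then 2.17-fold lower (-1.12, -2.13 to -0.23), from 12 against 75 UMIs, and 3.29-fold lower in Lyve1+ cells (-1.72, -3.42 to -0.38), from 5 against 39.

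Cells with at least 10 Ifih1 UMIs numbered 3, 10, 0 and 1 among all kept cells. Of the 10 in KO_CTR, 5 were phagocytes, 4 of them cavity macrophages, and the 10 cavity macrophages of that library reached 494 CPM of Ifih1 from 99 UMIs, against 17.4, 28.9 and 19.2 CPM in the other libraries. The 4 cells held 97 of these 99 UMIs, so that the level is not one of the 10 cells at large. Of the 10 high cells, 2 held a Ddx58 UMI and 8 did not, beside 68 of all 310 phagocytes of KO_CTR with one. These are too few cells to show whether Ddx58 rose with Ifih1. The interferon-stimulated genes detected in the 10 high cells ranged from 1 to 15 of 18, and 8 of these cells held a UMI of the chemokine gene Cxcl10. The single such cell of KO_HFD held all 18, and those of Lox_CTR 12 to 15.

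The ligands were nearly silent. Of 7 type I interferon genes listed, Ifna1, Ifna2, Ifna4, Ifna5, Ifne and Ifnk had 0 UMIs in every library. Ifnb1, the interferon-beta gene switched on by IRF3, had 253, 17, 0 and 0 UMIs. In Lox_CTR they lay in 4 cells, of which 1 phagocyte held 250 Ifnb1 UMIs together with 12 Ifih1 UMIs and 15 of the 18 interferon-stimulated genes. In KO_CTR they lay in 10 cells, 6 of them phagocytes, with at most 3 UMIs each. The counts of 0 among 1020 and 2266 cells allow up to 0.294% and 0.132% of cells with a UMI. These Ifnb1 and Ifih1 cells were singled out after their values were seen.

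**Figure D5:**
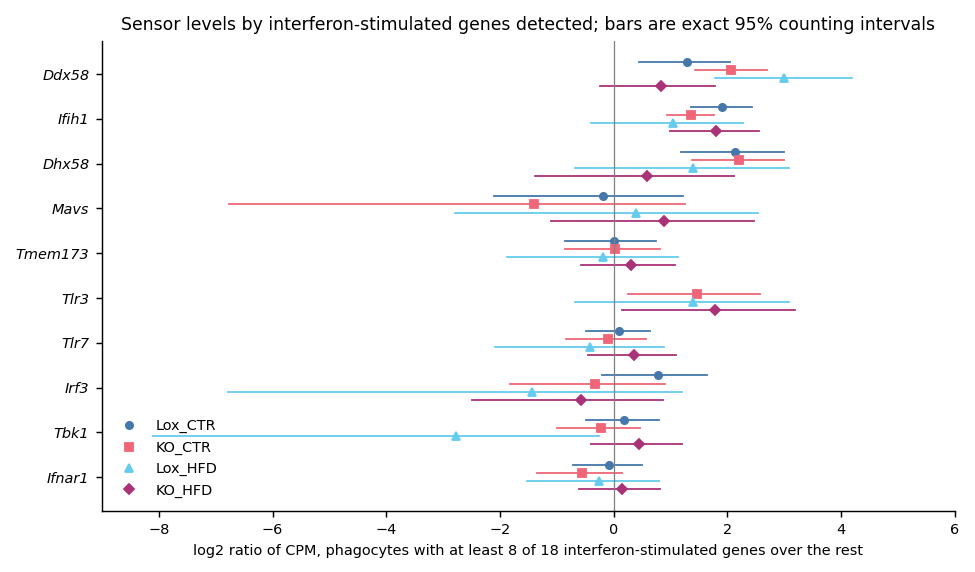
Log2 ratio of CPM (x axis, exact 95% counting intervals) between phagocytes with at least 8 of 18 interferon-stimulated genes detected and the other phagocytes of the same library, 1 point per library. Ddx58, Ifih1 and Dhx58 lie right of 0 in all 4 libraries, and Tlr3 in the 3 with UMIs in both groups.

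Within each library, the phagocytes with at least 8 of the 18 interferon-stimulated genes detected (27, 30, 7 and 19 cells) were set beside the rest, a split made after the data were seen. In all, 22 cells had exactly 8 and 42 cells exactly 7. Ddx58 stood at 40.2, 107, 118 and 46.1 CPM in the first group and 16.4, 25.5, 14.8 and 25.8 in the second. Ifih1 was at 92.9, 206, 63.3 and 83.8 against 24.7, 79.9, 30.6 and 24.1 CPM, and Dhx58 at 35.2, 70.6, 36.2 and 16.8 against 8.01, 15.3, 13.7 and 11.2. All 3 helicase genes were higher in the first group in 4 of 4 libraries, with intervals above 0 in 3, 3 and 2 of them. How many of all genes were higher in the same way was not counted. The 67 Ifih1 UMIs of the first group of KO_CTR included cells of 16 and 14 UMIs, and the 37 of Lox_CTR a cell of 12. Ddx58 and Ifih1 carry the longer motif printed above near their starts, Tlr3 does not and Dhx58 has no promoter entry. A link between motif and level was not tested.

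Tlr3 stood at 0, 30.7, 36.2 and 25.1 CPM in the first group and 5.94, 11, 13.7 and 7.3 in the second, higher in 3 of 4 libraries, with 0 UMIs in the first group of Lox_CTR. Tmem173 had 37.7, 46, 45.2 and 62.9 against 37.5, 45, 51.8 and 51.1 CPM, and Tlr7 72.8, 64.4, 45.2 and 71.2 against 67.9, 68.8, 60.2 and 55.4. The intervals of Tmem173, Tlr7, Mavs, Irf3 and Ifnar1 held 0 in every library. Tbk1 was lower in Lox_HFD only, from 1 UMI. The first group was deeper, with a median of 9957 to 14234 UMIs per cell against 7463 to 10347.5, and a deeper cell can pass the count of detected genes more easily, so that the part of depth in the split was not tested.

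Over the 32 sums of cell type and library, each member was set beside 8794 genes with a mean of at least 10 CPM. The genes whose log2(CPM + 1) followed a member most closely are given as a description, since the sums share libraries. For Ifnar1 these were Rhog, Prex1 and Fmnl1 (Pearson r = 0.95, 0.92 and 0.92), for Tlr3 Cst3, Nectin1 and Lmo1 (0.92, 0.92 and 0.91) and for Ifih1 Sema6d, Rbms1 and Xdh (0.89, 0.87 and 0.86). For Tlr7 they were Snx2, Blnk and Tank (0.88, 0.88 and 0.86), for Tmem173 H2-D1, Gm4070 and Trim30a (0.86, 0.86 and 0.84) and for Ddx58 Tigd2, Zfp182 and R3hcc1l (0.84, 0.81 and 0.81). Dhx58 had Hsd17b12, Amdhd2 and Vav3 (0.83, 0.80 and 0.75), Irf3 had Kmt2a, Rnf144a and E4f1 (0.81, 0.80 and 0.80), Tbk1 had Zcchc6, Dip2b and Il4ra (0.80, 0.80 and 0.77), and Mavs had Pygb, Xxylt1 and Zfp809 (0.74, 0.74 and 0.68). No other member was among these genes, but Dhx58 and Mavs had a mean under 10 CPM and could not have been. Between members the highest correlations were those of Tlr3 with Ifih1 and of Tmem173 with Dhx58 (0.58 each), and Ddx58 with Ifih1 had 0.15.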

How the data were processed

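The values the authors deposited are whole UMI counts per gene and cell barcode, made with Cell Ranger 6.1.2 on mm10 (per the labels) and not normalized. Barcodes under 200 or over 6000 detected genes, or above 15% of UMIs from mitochondrial genes, were dropped, and the others were gated by markers detected. For example, 7 of 12 markers were asked of phagocytes and 7 of 8 of fibroblasts, and cells passing several gates were left out. The minimum numbers were set after seeing how many markers cells held. Scrublet (scanpy 1.11.5) marked 265 doublets, which were left in and removed as an alternative.

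UMIs were summed per type and library and scaled to 1000000 (CPM). The 8 types with at least 10 cells in every library were fitted in edgeR 4.0.16 (R 4.3.3) with the library as block, calling an adjusted p under 0.05, and the phagocyte subsets in a second fit. DESeq2 1.42.0 was an alternative. The edgeR fit of cell types was tested on simulated data, for phagocytes against fibroblasts. Those data had a common average profile for all types and few changed genes. The run therefore does not show how the fit behaves in the real contrast, where 68.9% of genes differed. Ratios between libraries had exact 95% binomial intervals. Intervals cover counting error only. Gene positions are from GENCODE M21. Thinning drew 3000 UMIs per cell. Other steps ran in Python 3.11.15 (scipy 1.17.1, pandas 2.3.3, numpy 2.4.6), and plots in matplotlib 3.10.9.

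Named genes were all 10 members, Ifnar2, at most 4 pathway genes per contrast with the largest difference among those passing, and the 3 genes most like each member. Members and lists were chosen with earlier results of these data known. The agent given to the atherosclerotic mice at the start of the diet is not reported here.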

Additional observations from a re-analysis of the deposited data

How the results depend on the processing

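The counts of members passing between cell types stayed within 1.5 times of the reported ones under DESeq2, without the low-count filter, with doublets removed, with a mitochondrial limit of 10% and with a stricter gate, except for Lyve1+ against other phagocytes, where 2 became 0 with the stricter gate and 1 to 2 when each library was left out. Library as a block was part of the fit. Of ratios between libraries, those past 1.5-fold went in fibroblasts from 1 to 2 as a mean over cells and to 2 without the 5 highest cells of each member, in Lyve1+ macrophages from 8 to 4 with the stricter gate, and in smooth muscle cells from 3 to 6 without the 5 highest cells. Tlr3 in smooth muscle cells of Lox_HFD against Lox_CTR reversed there, to -0.57. Leaving out 5 cells takes a larger share of the UMIs of the small Lox_HFD library than of the others. No paired analysis was possible because each condition is 1 library. Ratios rest on few UMIs in Lox_HFD, the library with the fewest cells.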
